A study of Capra hircus with 12 samples.

Results

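The RTL1-region miRNAs are a group of small RNAs encoded in and beside RTL1, a retrotransposon-derived gene in the imprinted DLK1-DIO3 domain. They were examined in embryonic flank skin of Inner Mongolia cashmere goats (Capra hircus) at 45 (E45), 55 (E55) and 65 (E65) days of embryonic life. The members were the rows whose sheep miRNA name is miR-127, miR-136, miR-370, miR-431, miR-432, miR-433, miR-493 or miR-665, counting each listed arm of the precursor hairpin as a row. All 8 names were found, in 12 of the 649 rows of the table, of which 151 carry a sheep name. For small RNA sequencing 3 skin samples per stage were combined before RNA was extracted, so that each stage is 1 pooled library with no replicate. The goats received no treatment that the labels name, the sex of the embryos is not given, and the labels tell the stages apart by age. The libraries were run on a pair of sequencing instruments, and since it is not given which ran on which, age and instrument cannot be told apart. The study asked how gene expression changes as the primary hair follicle is initiated.

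In an imprinted domain each imprinted gene is expressed from the copy of one parent. On the maternal chromosome of this domain the non-coding RNAs are transcribed, among them MEG3, an antisense transcript of RTL1 and a large group of miRNAs, while DLK1, RTL1 and DIO3 are expressed from the paternal one. The miRNAs cut from the antisense transcript match the RTL1 mRNA perfectly and can direct its cleavage, and in sheep the domain is known from the callipyge muscle phenotype. From mammalian maps, miR-431, miR-433, miR-127, miR-432 and miR-136 were taken as antisense to RTL1, and miR-493, miR-665 and miR-370 as flanking it. In the RefSeq gene table for the goat assembly ARS1.2, 6 of the 8 hairpins were found by symbol, all on chromosome 21. MIR493 and MIR665 come before RTL1, and MIR433, MIR127, MIR432 and MIR136 follow in this order inside the annotated span of RTL1. The build used for the miRNA table is not given in the sources used here, so no coordinates are reported.

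The antisense members are shown first, because they share a transcript and yet differed most in how their levels changed, followed by both arms of miR-493 and miR-665, whose balance shifted between libraries. The sequences are those of the deposited table, written 5′ to 3′ with T for U, and the capitals mark the seed (bases 2 to 8), through which a miRNA recognises most of its targets.
miR-431: tGTCTTGCaggccgtcatgcagg
miR-433-5p: tACGGTGAgcctgtcattgttca
miR-433-3p: aTCATGATgggctcctcggtgt
miR-127: aTCGGATCcgtctgagcttggct
miR-432: tCTTGGAGtaggtcattgggtgg
miR-136: aCTCCATTtgttttgatgatgga
miR-493-5p: tTGTACATggtaggctttcatt
miR-493-3p: tGAAGGTCtactgtgtgccagg
miR-665-5p: aGGGGTCTtggcctctgcccag
miR-665-3p: aCCAGTAGgccgaggcccctca

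The 12 rows hold 12 different seeds, so the members do not form a seed family although they lie side by side. A single row outside the group shares a seed with a member. It is miR-1193-3p of the neighbouring miR-379/miR-410 cluster, which has the seed of miR-370-5p, the scarcest member.
miR-370-5p: cAGGTCACgtctctgcagttac
miR-1193-3p: tAGGTCACccgtttgactatcc
No member's sequence was listed again on another row, nor contained in or containing one, whereas 110 of the 649 rows share their sequence with another. The members were 22 to 24 bases long. Their median GC content was 54.5%, against 45.0% over the 89 rows of the miR-379/miR-410 cluster and 45.0% over all rows, and both arms of miR-665 were at 68.2%.

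Values are RPM, the reads of a row per 1000000 reads summed over the 649 listed rows, since each column adds up to about 1000000. As 110 of these rows share their sequence with another, some reads may be counted more than once in that total. The values up to 100 RPM were whole multiples of what 1 read is worth in each library. This gave depths, meaning totals over the listed rows, of 2455489 (E45), 4125737 (E55) and 2344797 (E65) reads. All 12 members had more than 3 reads in every library, and 11 of them had a mean of at least 10 RPM. Intervals are exact 95% intervals on these reads. They cover counting error only and say nothing of the spread between embryos, and reads amplified by PCR without molecular identifiers are not independent molecules, so ratios compare 3 libraries and not the stages, and no test between stages was possible.

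miR-127, the most studied miRNA of the antisense transcript, was the most abundant member by far. Its RPM was 9993.52 (E45), 18872.48 (E55) and 10631.62 (E65), and it ranked 23, 12 and 23 among all rows. It was thus highest at E55. It made up 47.4%, 56.9% and 60.2% of the members' summed RPM. In the order of levels miR-493-3p came next in every library, with 2640.61, 4073.21 and 1980.13 RPM. At E45 the following rows, miR-493-5p (1916.93 RPM), miR-136 (1916.52 RPM) and miR-370-3p (1861.13 RPM), could not be ordered, since the intervals of neighbours overlapped. At E55 and E65 these 3 were apart, in the order miR-370-3p, miR-136, miR-493-5p at E55 and miR-136, miR-370-3p, miR-493-5p at E65. At the other end, miR-370-5p had 5, 16 and 7 reads, equal to 2.04, 3.88 and 2.99 RPM.

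**Figure D1:**
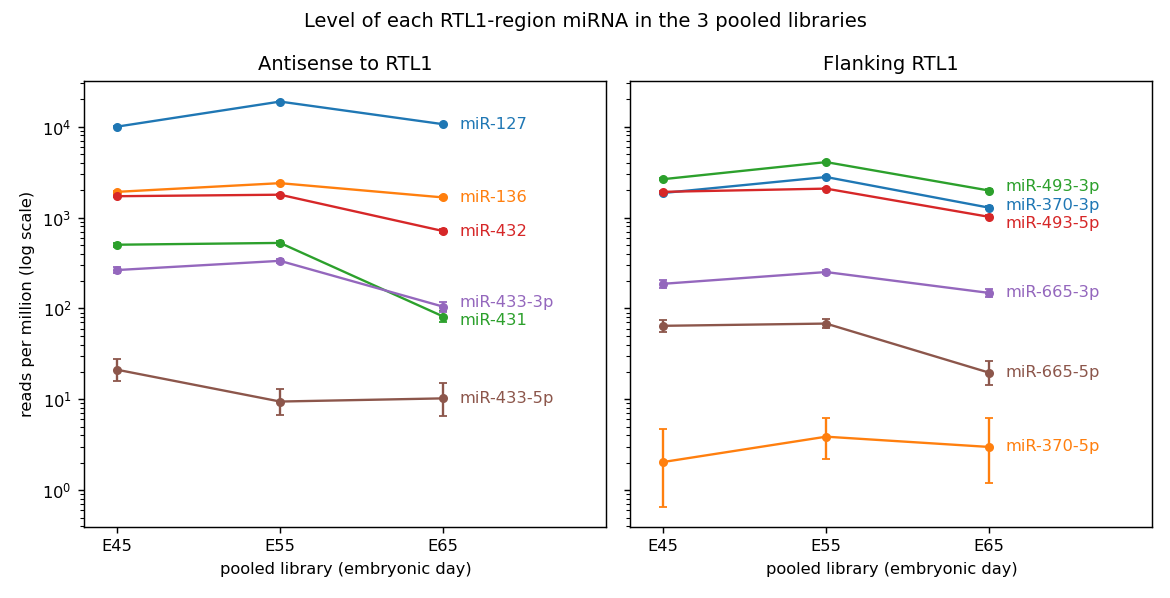
Level of each member row (RPM, log axis) in the E45, E55 and E65 pools, with the antisense members on the left and the flanking members on the right; points are single pooled libraries and bars are exact 95% Poisson intervals on the reads. Most lines peak at E55 and end below their start, miR-431 drops from 525.48 RPM at E55 to 81.46 at E65, and miR-433-5p is highest at E45.

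Of the 12 rows, 11 were highest at E55 and 9 were lowest at E65. Over all 649 rows 26.7% were highest at E55 and 45.9% lowest at E65. Summed over the members, the E45 pool held 21085.00 RPM, the E55 pool 33180.69 and the E65 pool 17651.01. These sums are 2.11%, 3.32% and 1.77% of the total over all 649 rows. Without miR-127 the sums were 11091.48, 14308.21 and 7019.39 RPM. As deposited the log2 ratio of the E65 to the E45 sum was -0.26, but it was 0.14 with median scaling, so its direction depends on the scaling. A bulk library cannot separate fewer cells that make these miRNAs from less miRNA per cell.

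From E45 to E55 the members were mostly higher. The median log2 ratio of RPM + 1 was 0.33, with 11 of 12 rows above 0, while the median of all rows was -0.25. No member was at least 2-fold higher, where 4.47% of all rows were (3.49% of the rows with a mean of at least 10 RPM). Only miR-433-5p was at least 2-fold lower among the members, where 17.7% of all rows were (20.1% of the rows with that mean). It had 21.18, 9.45 and 10.24 RPM, from 52, 39 and 24 reads, so its E45 pool stood above the others. With libraries scaled to their median row the members' median was 0.65, miR-127 was past 2-fold (log2 ratio 1.25) and no member was 2-fold lower, and with a pseudocount of 10 RPM the call of miR-433-5p was lost too. No share of all rows is given for these settings. miR-127 had the highest E55 vs. E45 ratio among the members with a mean of at least 10 RPM, 1.89 (95% interval 1.86 to 1.92). The 3p arms of miR-493 and miR-370 followed with ratios of 1.54 (1.50 to 1.59) and 1.50 (1.45 to 1.55). By contrast miR-431 stood at 1.05 (0.975 to 1.12), an interval that includes 1, and miR-432 at 1.04 (1.00 to 1.08). The interval lay above 1 for 8 of the 12 rows (16.3% of all rows), below 1 for miR-433-5p (37.1% of all rows), and included 1 for miR-431, miR-370-5p and miR-665-5p. At 1.5-fold on the scale of RPM + 1, 3 members were higher (12.6% of all rows). They were miR-127, miR-493-3p and miR-370-5p, the last from 5 and 16 reads, while miR-370-3p fell just short.

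From E55 to E65 the levels were lower throughout the group, with the single exception of miR-433-5p. The interval of the ratio lay below 1 for 10 rows (28% of all rows) and included 1 for miR-433-5p and miR-370-5p, the 2 scarcest. The median log2 ratio was -1.04, against -0.09 over all rows. At least 2-fold lower were 7 of the 12 members, where 16.3% of all rows were, and 18% of the rows with a mean of at least 10 RPM. No member was 2-fold higher (6.32% of all rows and 6.7% of those with that mean). The 7 were miR-431, miR-432, miR-433-3p, miR-370-3p, miR-665-5p and both arms of miR-493. Both arms of miR-493 lay close to the threshold, at log2 ratios of -1.04 for miR-493-3p and -1.03 for miR-493-5p. Just outside it was miR-127, at -0.83. With median scaling both arms of miR-493 lost the call, which left 5 members, and without the 10 most abundant rows miR-370-3p lost it too (-0.97), which left 4. No share of all rows is given for these scalings. At 1.5-fold, 9 members were lower (29.1% of all rows).

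miR-431, which is known to act on PAX7 in muscle progenitors, differed most. It had 502.14, 525.48 and 81.46 RPM at E45, E55 and E65, and was therefore level in the first pair of libraries and low in the last. In E65 vs. E55 it was 6.45-fold lower (95% interval 5.56 to 7.52), and 0.770% of all rows had a lower log2 ratio of RPM + 1. miR-433-3p had 264.31, 333.76 and 104.49 RPM, 3.19-fold lower at E65 than at E55 (2.79 to 3.67). miR-432 had 1715.75, 1782.95 and 709.66 RPM, 2.51-fold lower (2.38 to 2.65).

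Of the other antisense members, miR-136 and miR-127 were less reduced, and miR-433-5p had a ratio of 1.08 (0.623 to 1.85). miR-136 had 1916.52, 2388.66 and 1663.68 RPM, 1.44-fold lower at E65 than at E55 (1.38 to 1.49). miR-127 was 1.78-fold lower (1.75 to 1.80).

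The flanking members with a mean of at least 10 RPM lay between miR-431 and miR-136 in E65 vs. E55, while miR-370-5p, with a ratio of 0.771 (0.268 to 1.98), was too scarce to place. miR-370-3p had 1861.13, 2791.01 and 1282.84 RPM, with an E65 vs. E55 ratio of 0.460 (0.441 to 0.479). miR-493-3p and miR-493-5p had ratios of 0.486 (0.470 to 0.502) and 0.489 (0.467 to 0.511), which could not be told apart. The arms of miR-665 differed. miR-665-5p had 64.35, 68.11 and 19.62 RPM, a ratio of 0.288 (0.206 to 0.395), and miR-665-3p had 186.52, 251.35 and 147.99 RPM, a ratio of 0.589 (0.520 to 0.666).

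**Figure D2:**
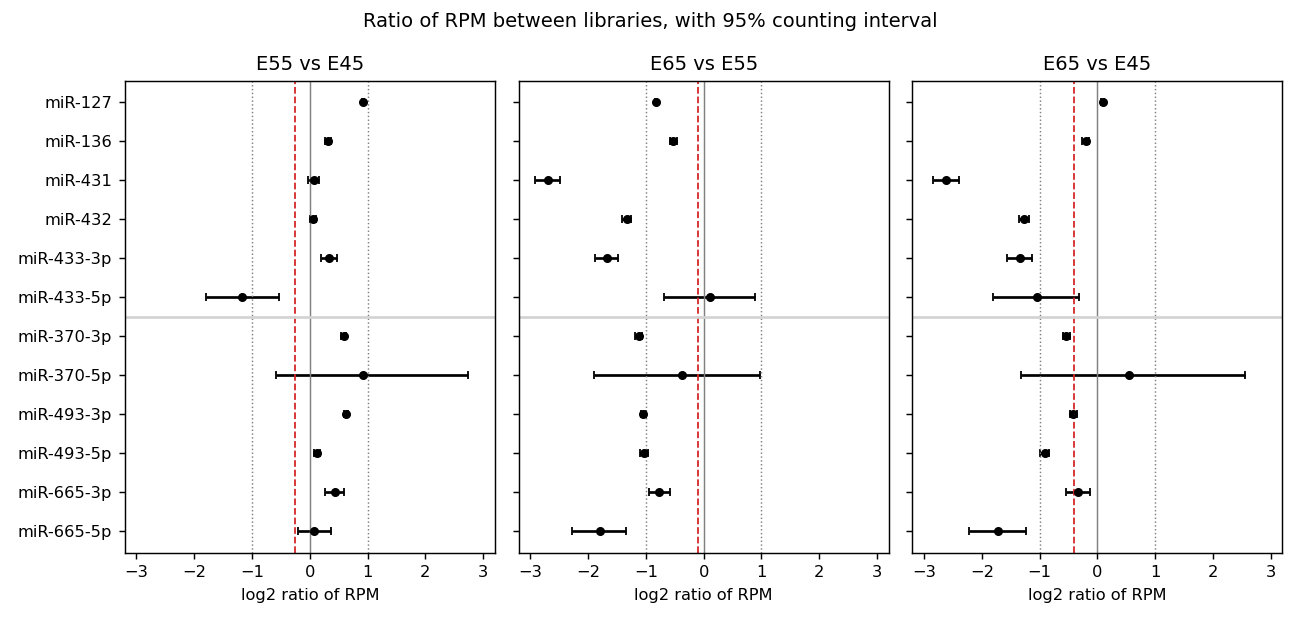
Log2 ratio of RPM for each member in the 3 comparisons between pooled libraries, with exact 95% counting intervals as bars; the antisense members are above the grey line and the flanking members below, dotted lines mark 2-fold, and the red dashed line is the median log2 ratio (RPM + 1) of all 649 rows. In E65 vs. E55 miR-431 lies far to the left at a log2 ratio of -2.69, and miR-433-5p is the single point right of 0.

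Over the whole interval, E65 vs. E45, 4 members were at least 2-fold lower, where 26.8% of all rows were (28.4% of those with a mean of at least 10 RPM). They were miR-431, miR-432, miR-433-3p and miR-665-5p, of which miR-432 (-0.88) and miR-433-3p (-0.94) lost the call with median scaling, leaving 2. No share of all rows is given for that scaling. At 1.5-fold, 6 members were lower (42.4% of all rows). None was 2-fold higher (5.86% and 4.56%). miR-433-5p lay just outside the threshold on the scale of RPM + 1, with a log2 ratio of -0.98, and just past it without the pseudocount, with -1.05. As deposited, the median of the members was -0.73 and that of all rows -0.41, so in RPM the E65 pool was lower for most rows of the table. With median scaling the members' median was -0.33. miR-127 had a ratio of 1.06 (1.05 to 1.08) as deposited, and its log2 ratio of 0.09 became 0.49 with median scaling and 0.29 without the 10 most abundant rows. miR-136, at 0.868 (0.832 to 0.906), and miR-665-3p, at 0.793 (0.688 to 0.914), were below 1 as deposited, but with libraries scaled to their median row both came out above 1.

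The antisense group as a whole (6 rows) stood at a median log2 ratio of 0.19 between E45 and E55 and of -1.08 between E55 and E65, and the flanking group (6 rows) at 0.51 and -1.04. To take out the scaling between libraries, the other rows were set against miR-127 in the same library. For every 1000 reads of miR-127 there were 50.2 reads of miR-431 at E45 (47.4 to 53.2), 27.8 at E55 (26.7 to 29.1) and 7.66 at E65 (6.61 to 8.83). miR-433-3p had 26.4 (24.4 to 28.6), 17.7 (16.8 to 18.7) and 9.83 (8.63 to 11.1) reads. For miR-432 there were 171.7 (166.1 to 177.4), 94.5 (92.2 to 96.8) and 66.8 (63.5 to 70.1). These 3 were lower in each later library, with no overlap of the intervals, and so were the flanking rows miR-370-3p, miR-493-3p, miR-493-5p and miR-665-5p. Their step from E45 to E55 goes with the rise of miR-127 itself, the divisor, since none of these rows was lower in RPM at E55 than at E45. miR-136 behaved otherwise, with 191.8 (185.8 to 197.9), 126.6 (123.9 to 129.2) and 156.5 (151.2 to 161.9) reads, lowest at E55. miR-433-5p was also lowest at E55, with 2.12 (1.58 to 2.78), 0.501 (0.356 to 0.685) and 0.963 (0.617 to 1.43) reads, and so was miR-665-3p, with 18.7 (17.0 to 20.5), 13.3 (12.5 to 14.2) and 13.9 (12.5 to 15.5) reads. In both the E55 and E65 intervals overlapped, and for miR-370-5p, at most 0.281 reads, all 3 did.

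**Figure D3:**
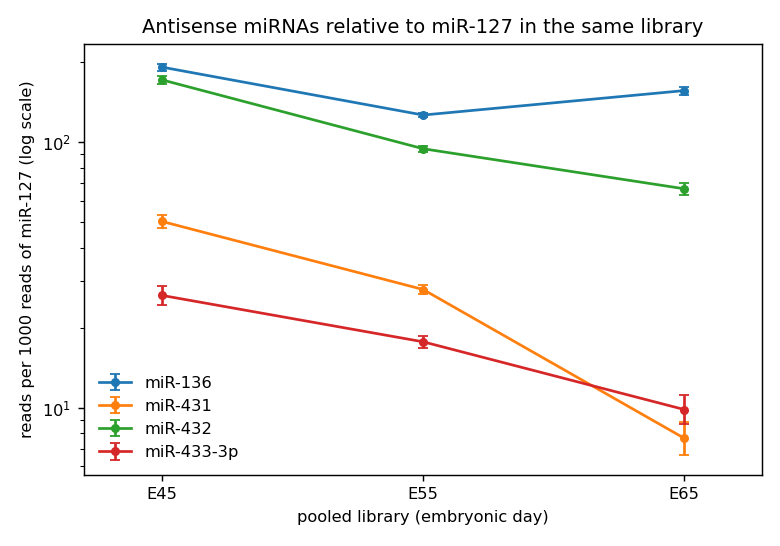
Reads of 4 antisense members per 1000 reads of miR-127 in the same pooled library (log axis), with bars for exact 95% counting intervals; the scaling between libraries does not enter. miR-431, miR-432 and miR-433-3p are lower in each later library, miR-431 from 50.2 to 7.66, while miR-136 is lowest at E55.

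Both arms were listed for miR-370, miR-433, miR-493 and miR-665. A hairpin yields a duplex of its 5p and 3p arms, of which usually one is kept, and the share of reads on each arm within a library does not depend on the scaling either. The 3p arm was the more abundant in all 4 hairpins. For miR-493 it took 57.9% of the reads of both arms at E45 (57.0% to 58.9%, exact Clopper-Pearson), 66.2% at E55 (65.6% to 66.8%) and 66.1% at E65 (65.0% to 67.2%). The E45 pool thus stood apart from the others, which overlapped. For miR-665 the share was 74.4% (70.7% to 77.8%), 78.7% (76.4% to 80.9%) and 88.3% (84.7% to 91.3%), with E65 apart. For miR-433 it was 92.6% (90.4% to 94.4%), 97.2% (96.3% to 98.0%) and 91.1% (87.0% to 94.2%), with E55 apart. The 5p arm of miR-433 is the one given above with at most 52 reads per library. For miR-370 the 3p share was 99.9%, 99.9% and 99.8%, with overlapping intervals.

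In duplexes computed from the listed arms, those of miR-493 formed 18 base pairs and those of miR-665 17, with free energies of -25.5 and -31.9 kcal/mol. miR-433 formed 14 pairs at -20.3 and miR-370 15 pairs at -20.6 kcal/mol. In the miR-379/miR-410 cluster the median of 42 hairpins was 15 pairs and -17.9 kcal/mol.

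**Figure D4:**
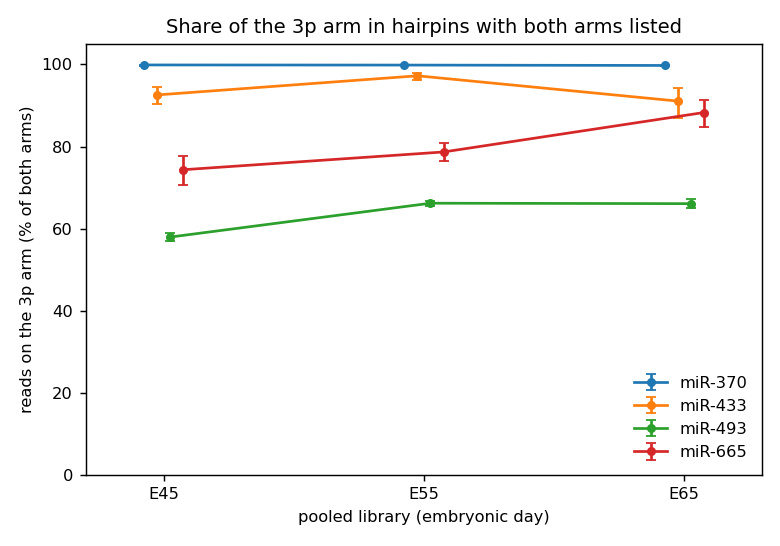
Share of reads on the 3p arm, in percent of the reads on both arms, for the 4 hairpins with both arms listed, in the E45, E55 and E65 pools; bars are exact 95% binomial intervals. miR-370 stays near 100%, miR-493 steps from 57.9% to 66.2% between E45 and E55, and miR-665 reaches 88.3% at E65.

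The group most like the RTL1 region is the miR-379/miR-410 cluster further along the same domain, with 89 rows from 47 hairpins. Its sums were 130235.48 (E45), 193607.33 (E55) and 120840.19 (E65) RPM, and the RTL1 region made up 13.9%, 14.6% and 12.7% of the sum of both. Its median log2 ratio was 0.27 between E45 and E55 and -0.80 between E55 and E65, beside 0.33 and -1.04 for the RTL1 region. Of its 89 rows, 58 were highest at E55 and 65 (73.0%) lowest at E65, beside 75% of the members. In E65 vs. E55, 81 of the 89 were lower, and 33 were at least 2-fold lower. The difference between the groups was not tested. The 50 named rows outside both groups had medians of -0.15 and 0.34, and in E65 vs. E55 39 of them were higher and 1 was at least 2-fold lower. Of these 50 rows, 4 were highest at E55 and 10 were lowest at E65. The 7 let-7 rows, of a family known to accumulate late in development, had medians of 0.96 and 0.45, with 6 rows above 0 in each. The row below 0 was let-7c in E55 vs. E45 (-0.42) and let-7i, the most abundant, in E65 vs. E55 (-0.14). Their summed RPM was 32608.15, 48536.24 and 50320.33, with an E65 vs. E55 ratio of 1.04.

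**Figure D5:**
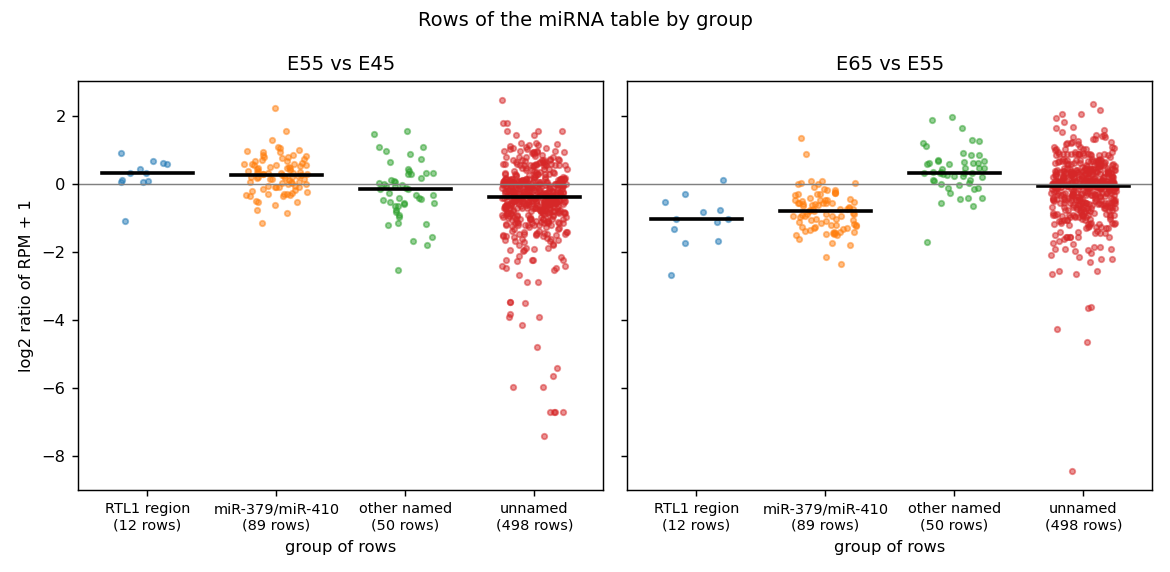
Log2 ratio of RPM + 1 for every row of the table, between E45 and E55 and between E55 and E65, divided into the RTL1 region (12 rows), the miR-379/miR-410 cluster (89), other rows with a sheep name (50) and rows without one (498); points are rows, spread sideways at random, and black lines are medians. Both groups of the domain sit above the other named rows in E55 vs. E45 (medians 0.33, 0.27 and -0.15) and below them in E65 vs. E55 (-1.04, -0.80 and 0.34).

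Likeness of pattern was measured as the distance between centred log2(RPM + 1) profiles over the 3 libraries, from the median profile of the 11 members with a mean of at least 10 RPM. Among 108 other named rows with such a mean, the nearest 5 were miR-376a-3p (distance 0.17), miR-3959-3p (0.17), miR-541-5p (0.19), miR-3957-5p (0.20) and miR-329b-3p (0.22). All belong to the miR-379/miR-410 cluster, as do the nearest 20, and this cluster holds 63 of the 108 rows. With 3 libraries such a distance describes 3 values only. Of the members themselves miR-493-5p lay nearest to the median profile (0.20) and miR-431 farthest (1.39).

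Flank skin of the embryo can hold muscle and other tissue beside epidermis and dermis. Among the muscle markers listed (miR-1, miR-133a, miR-133b and miR-206) no row carries these names, but a row named miR-133, noticed once the names were read, had 3105.69 (E45), 6622.57 (E55) and 2012.97 (E65) RPM. Like most members it was highest at E55 and lowest at E65, and its part in the result was not tested. Of the epidermal markers, miR-200b had 76.56, 120.95 and 451.21 RPM and miR-200c 41.54, 77.56 and 306.64 RPM, both highest at E65. miR-200a was near the lower limit with 0.41, 0.48 and 1.28 RPM, and miR-141, miR-429, miR-203 and miR-205 had no row of that name. Of the dermal markers, miR-143 had 67983.55, 83127.59 and 95670.07 RPM and miR-199a-3p 32610.18, 22583.09 and 27994.74 RPM, while miR-199b, miR-214 and miR-145 had no row of that name. No row was named for the neuronal (miR-124, miR-9, miR-128), erythroid (miR-451, miR-144) or endothelial (miR-126) markers. As 498 rows carry no sheep name, a marker without a row may be among them. The summed epidermal list went from 118.51 to 759.13 RPM between E45 and E65, while the members went from 21085.00 to 17651.01 RPM, a direction that turned with median scaling.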

How the data were processed

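For the small RNA libraries, RNA was ligated to adaptors, reverse transcribed, amplified, selected by size on a gel and sequenced on an Illumina GAIIx and a NextSeq 500, and which library ran on which is not given in the sources used here. The submitters' processing notes name Bowtie, and build, miRNA database and counting rule are not given in the sources used here. The deposited values, called TPM by the authors, are RPM: each column sums to about 1000000 without length scaling. The gene RPKM table was not used here. Of the values up to 100 RPM, 100% were whole reads within a tolerance of 0.1, and of all values above 0, 97.8% to 99.7%. With 1 library per stage no count test was made.

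Ratios of RPM have exact conditional binomial (Clopper-Pearson) 95% intervals. Medians and 2-fold counts use log2(RPM + 1). Each member is named, and the nearest 5 rows by profile. Alternatives were pseudocount 10, a mean of at least 10 RPM, median scaling, libraries without their 10 most abundant rows and a fold of 1.5. Depth recovery and intervals were run on simulated Poisson counts. This checks the calculation only, and cannot show whether the intervals hold for these libraries. The members and lists were chosen with earlier results of these data known. Python 3.11.15, numpy 2.4.6, pandas 2.3.3, scipy 1.17.1, matplotlib 3.10.9 and ViennaRNA 2.7.2 (RNAduplex) were used.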

Additional observations from a re-analysis of the deposited data

How the results depend on the processing

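No member changed direction under pseudocount 10, median scaling or the removal of the 10 most abundant rows between neighbouring stages, and in E65 vs. E45 miR-136 and miR-665-3p did so with median scaling. Median scaling divided out log2 offsets of 0.23 (E45), -0.10 (E55) and -0.17 (E65). With it the median log2 ratio of the members became 0.65 (E55 vs. E45), -0.97 (E65 vs. E55) and -0.33 (E65 vs. E45), and the log2 ratio of their sum became 0.98, -0.84 and 0.14, where the deposited values gave 0.65, -0.91 and -0.26. The last of these turned positive. With it 1 member was at least 2-fold higher and 0 lower in E55 vs. E45, and 2 were lower in E65 vs. E45. The shares of all rows are for RPM as deposited with a pseudocount of 1, and none is given for the alternative scalings or pseudocount. Without the 10 most abundant rows the median in E65 vs. E55 became -0.88 with 4 members at least 2-fold lower, and the sum gave 0.70, -0.76 and -0.059. Without miR-127 the sum gave 0.37, -1.03 and -0.66. With pseudocount 10, 0 members were 2-fold lower in E55 vs. E45, and at 1.5-fold 3 were higher. The cause of these shifts was not tested. Of the 36 log2 ratios of single rows, 24 left their counting interval with median scaling, 14 without the 10 most abundant rows and 0 with pseudocount 10. The minimum of 10 RPM, and that of 30 reads for arm shares, drop rows only and cannot move a single value. Taking 1 row per hairpin, chosen after seeing the data, gave medians of 0.38, -1.08 and -0.48. No paired analysis was possible because each stage has 1 pooled small RNA library, and for the same reason none could be left out. At this depth miR-370-5p, with 5 to 16 reads, allows no order of the libraries.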

Other observations

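The arms of the hairpins in the neighbouring miR-379/miR-410 cluster were set beside those of the RTL1 region. There, 39 of 42 hairpins with both arms listed had at least 30 reads in each library. Among these, miR-376b and miR-376e had the same 5p reads in every library (121, 140 and 81), so their shares are not independent. The interval of the 3p share lay above 50% in all 3 libraries in 23 of the 39 and below it in 11. It lay above at E45 and E55 and below at E65 in 2, miR-1185 (58.7%, 56.3% and 41.4%) and miR-3959 (63.6%, 61.5% and 45.6%), and included 50% in at least 1 library in the other 3. In the RTL1 region it lay above 50% in every library in all 4 hairpins. Among the 39 hairpins of the cluster with at least 30 reads in each library, the widest range was that of miR-154b. Its 3p share was 52.3% at E45 (95% interval 49.2% to 55.3%), 36.5% at E55 (34.5% to 38.5%) and 30.2% at E65 (27.1% to 33.5%).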
